A study of Homo sapiens with 4 samples.

Results

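The miR-15/16 family is a group of microRNAs that carry the same seed, the stretch near the 5′ end through which a microRNA finds its target messages. The assays named hsa-miR-15a, hsa-miR-15b, hsa-miR-16, hsa-miR-195 and hsa-miR-424 were taken by name, and all 5 were present among the 377 human miRNA assays of the array card. They were measured by TaqMan quantitative PCR, 1 well per assay, in RPMI8226, a long-established cell line from a human multiple myeloma. The 4 groups were the exosome fraction of the medium after 24 h at 1% oxygen (hypoxia), the exosome fraction at 20% oxygen (normoxia), the hypoxic cells and the normoxic cells, with 1 sample each. The labels mention no transfection and no added drug in any group. The exosome fraction was a polymer precipitate of cleared and filtered medium, and only its products were pre-amplified before PCR.

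Mature microRNAs guide Argonaute proteins to messages that pair with the seed, and those messages are then repressed. For this family the best known targets are BCL2, which protects cells from apoptosis, and cyclin genes such as CCND1 and CCNE1, which drive entry into S phase. miR-15a and a copy of miR-16 lie in DLEU2, a non-coding gene in a region often deleted in chronic lymphocytic leukaemia and in myeloma, and loss of the pair releases BCL2 in lymphoid cells.

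The mature sequences are shown because their shared seed defines the family and the bases outside it are what separates the members. Capitals mark bases 2 to 8, the seed, in sequences from RefSeq (GRCh38.p14), in which all 5 members were matched.
miR-15a: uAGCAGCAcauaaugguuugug
miR-15b: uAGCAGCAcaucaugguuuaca
miR-16: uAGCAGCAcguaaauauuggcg
miR-195: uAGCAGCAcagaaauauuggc
miR-424: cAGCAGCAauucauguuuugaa
miR-503: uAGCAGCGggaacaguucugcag
miR-103: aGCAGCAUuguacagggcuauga
miR-107: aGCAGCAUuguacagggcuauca
The stretch of a message that would pair with the family seed reads ugcugcu. miR-503, a neighbour of miR-424, shares bases 2 to 7 with the family but not base 8. miR-103 and miR-107 hold nearly the same letters shifted by 1 base. Of 2370 mature miRNAs in the RefSeq table, 9 have the bases 2 to 7 of miR-16, counting miR-16 itself, and 7 of these 9 also have its base 8. Within the family, miR-15a and miR-15b were identical at 18 of 22 positions counted from the 5′ end, and miR-16 and miR-195 at 19 of 21, with the run aaauauuggc in common beyond the seed. miR-15a and miR-16 were identical at 16 of 22 positions. How far each assay also reads its nearest relative was not tested.

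The family is spread over 4 chromosomes, and miR-16 is made from a pair of gene copies that give the same mature RNA. The hairpins of the miR-15 and miR-16 pairs are printed with the mature strand in capitals, because each pair lies on 1 transcript and is compared below.
MIR15A: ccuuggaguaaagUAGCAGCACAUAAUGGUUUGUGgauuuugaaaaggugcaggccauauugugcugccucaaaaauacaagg
MIR16-1: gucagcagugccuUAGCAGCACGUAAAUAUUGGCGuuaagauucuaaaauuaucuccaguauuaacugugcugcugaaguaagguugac
MIR15B: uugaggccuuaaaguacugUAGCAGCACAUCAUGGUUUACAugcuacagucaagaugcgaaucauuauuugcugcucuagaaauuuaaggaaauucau
MIR16-2: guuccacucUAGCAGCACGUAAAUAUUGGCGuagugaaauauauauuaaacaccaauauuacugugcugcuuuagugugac
MIR15A (chr13:50049119-50049201, minus strand) and MIR16-1 (chr13:50048973-50049061, minus strand) lie 57 bases apart, inside the bounds of the non-coding gene DLEU2 on GRCh38.p14. MIR15B (chr3:160404588-160404685, plus strand) and MIR16-2 (chr3:160404745-160404825, plus strand) lie 59 bases apart inside SMC4, which encodes a condensin subunit. MIR195 (chr17:7017615-7017701, minus strand) lies inside the non-coding gene MIR497HG. MIR424 (chrX:134546614-134546711, minus strand) lies 215 bases from MIR503. The assay of mature miR-16 cannot tell the chromosome 13 copy from the chromosome 3 copy.

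Values are given as the threshold cycle (Ct), the PCR cycle at which the signal crosses a threshold, so that a lower Ct means more template and 1 cycle stands for a doubling at full efficiency. The highest Ct in the deposited table was 35, which was read as not detected. A Ct under 35 was recorded for 219 and 221 assays in the hypoxic and normoxic exosome fraction and for 155 and 162 in hypoxic and normoxic cells. The normalizers were the mean of 4 U6 wells in cells (Ct 18.81 ± 0.12 in hypoxia and 18.82 ± 0.15 in normoxia, SD over wells of 1 sample) and the spike-in ath-miR159 in the exosome fraction (22.99 in hypoxia and 22.94 in normoxia). With 1 sample per group there is no replicate error, no test between groups and no p-value. The only repeated measurement, the U6 wells, gives an SD of 0.19 cycles for the difference of 2 wells, pooled over both cell samples and measured on an abundant RNA within each card. The 6 blood and lymphoid marker assays, among them miR-142-3p, miR-150 and miR-155, were detected in all 4 samples, as were 138 of all 377 assays. Of 6 epithelial marker assays, 5 were also detected in each sample. In hypoxic and normoxic cells the strongest epithelial assay, miR-200b, stood at Ct 28.64 and 28.96. The strongest blood and lymphoid assay, miR-142-3p, stood lower, at 24.97 and 24.95, while miR-155 stood at 30.97 and 31.67. Among the other epithelial assays, miR-205 stood at 33.98 and 33.10, and miR-141 was at the ceiling in both cell samples.

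miR-16 was among the strongest signals in every sample, and the remaining members covered the range down to no detection. miR-16, a member known to be abundant in blood cells, had a Ct of 16.91 in the hypoxic and 16.97 in the normoxic exosome fraction, against 23.96 in hypoxic and 23.66 in normoxic cells. These values ranked it 6th of 219, 6th of 221, 8th of 155 and 7th of 162 detected miRNAs. miR-15b stood at 21.62 and 21.98 in the hypoxic and normoxic exosome fraction, against 28.00 and 27.53 in hypoxic and normoxic cells. Its ranks in the same order were 29, 38, 37 and 30, so it was in the upper part of the detected assays in all 4 samples. miR-195, known as a tumour suppressor in several cancers, stood at 22.97 and 22.74 in the hypoxic and normoxic exosome fraction, against 29.65 and 29.98 in hypoxic and normoxic cells. It ranked 51, 43, 52 and 60 in that order.

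miR-424 and miR-15a were each at the ceiling in part of the samples. miR-424, which is known to be induced by hypoxia in endothelial cells, where it targets the ubiquitin ligase scaffold CUL2, had a Ct of 29.97 in the hypoxic and 29.65 in the normoxic exosome fraction. In cells it was seen at 33.33 in hypoxia and stood at the ceiling in normoxia. miR-15a was seen in 1 sample only, the normoxic cells, at Ct 30.10 (rank 62 of 162), and stood at the ceiling in the hypoxic exosome fraction, the normoxic exosome fraction and the hypoxic cells. Of the 20 wells of the family, 16 held a Ct under 35, and 9 of these 16 values lay within 0.1 of a whole cycle. A Ct compares 2 assays only as far as their efficiencies are equal, which was not measured here.

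**Figure D1:**
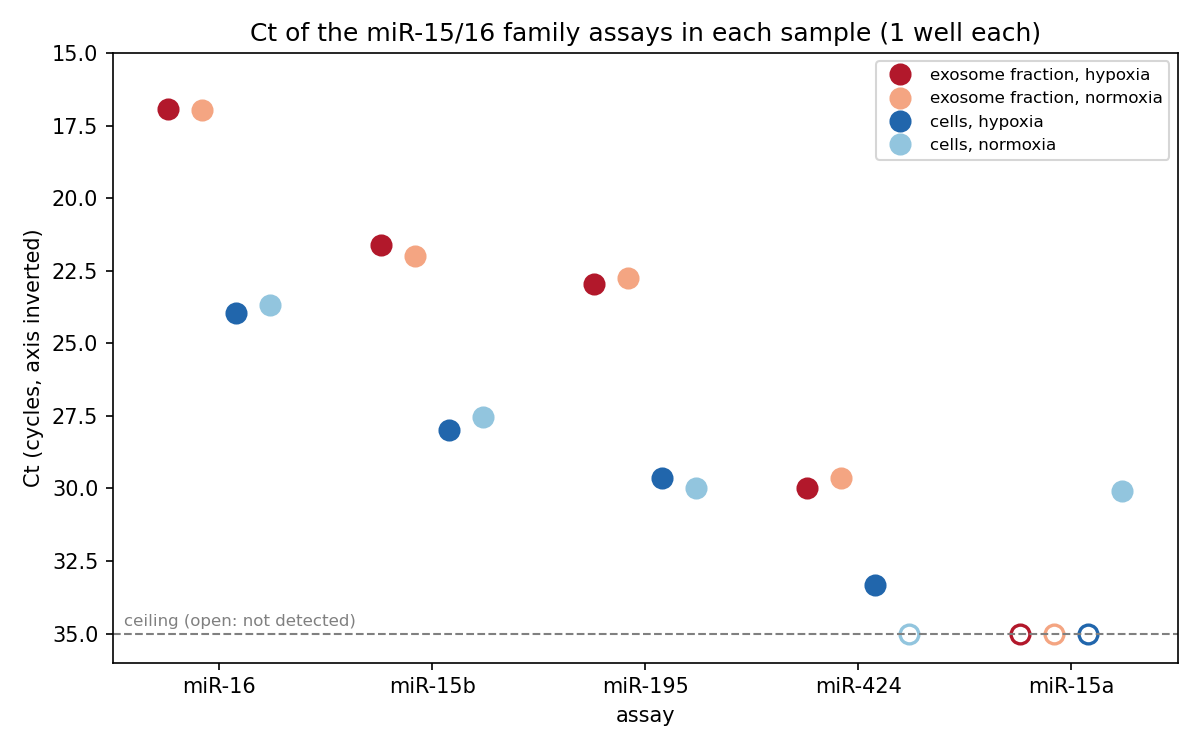
Ct of the 5 family assays (vertical axis in cycles, inverted so that more template is higher) in the hypoxic and normoxic exosome fraction and in hypoxic and normoxic cells, 1 well per point. Open points at 35 are wells at the ceiling: miR-15a is detected in normoxic cells alone, and miR-424 in every sample but normoxic cells.

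The first comparison asked how the family differs between hypoxic and normoxic cells. None of the 3 members detected in both cell samples was past 2-fold, where 13.6% of all 147 assays detected in both were. miR-15b was 1.38-fold lower in hypoxic cells (log2 change -0.47), and 22 of the 147 assays had a lower value. miR-16 was 1.24-fold lower (-0.31), with 35 assays below it. miR-195 was 1.26-fold higher (0.33), with 39 assays above it. The 3 values lay inside the middle 95% of all assays (-1.19 to 1.31), and their sizes were between 1.57 and 2.40 times the SD of the difference of 2 U6 wells. Their median was -0.31, against 0.03 over all 147 assays.

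The other 2 members were seen in only 1 of the cell samples, and in opposite conditions. miR-15a, the partner of miR-16 on chromosome 13, was at least 30.0-fold lower in hypoxic cells, from Ct 35 in hypoxia against 30.10 in normoxia. Detection in normoxic cells only was found for 15 of the 170 assays seen in either cell sample (8.82%). Most of these had a normoxic Ct above that of miR-15a. Among the 62 assays with a normoxic Ct at or under that of miR-15a, only miR-15a itself and miR-493 (Ct 20.94 in normoxic cells) were at the ceiling in hypoxia (3.23%). miR-424 was at least 3.16-fold higher in hypoxic cells, from Ct 33.33 in hypoxia against the ceiling in normoxia. Detection in hypoxic cells only was found for 8 of the 170 assays (4.71%). Of these 8, miR-424 and 4 others were among the 33 assays with a hypoxic Ct from that of miR-424 up to the ceiling (15.2% of the 33). The authors' deposited table lists ratios of 0.0333 for miR-15a and 3.1626 for miR-424 in hypoxic over normoxic cells, which treat Ct 35 as a measurement. Both bounds compare a single well with a single well, and their size is set by where the ceiling is placed. On the log2 scale, that of miR-15a was -4.91 with the ceiling at Ct 35, -3.91 at Ct 34 and -2.91 at Ct 33. With the ceiling at Ct 34 that of miR-424 was 0.66, below 2-fold.

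The second comparison asked the same of the exosome fraction. The 4 members detected there differed by less than 1.5-fold between the oxygen conditions, and none was past 2-fold, where 7.39% of all 203 assays detected in both exosome samples were. miR-15b was higher by 1.33-fold in the hypoxic exosome fraction (log2 change 0.41), with 23 of the 203 assays above it. miR-16 was 1.08-fold higher (0.11). miR-195 was 1.13-fold lower (-0.18) and miR-424 1.21-fold lower (-0.27), with 76 and 57 assays below them. No spread between wells is known for the exosome fraction, where U6 stood at the ceiling. The median of the 4 members was -0.04, against -0.07 over all 203 assays. miR-15a was at the ceiling in both exosome samples, so no change can be given, although the authors' deposited table lists a ratio of 1.0376 for it.

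**Figure D2:**
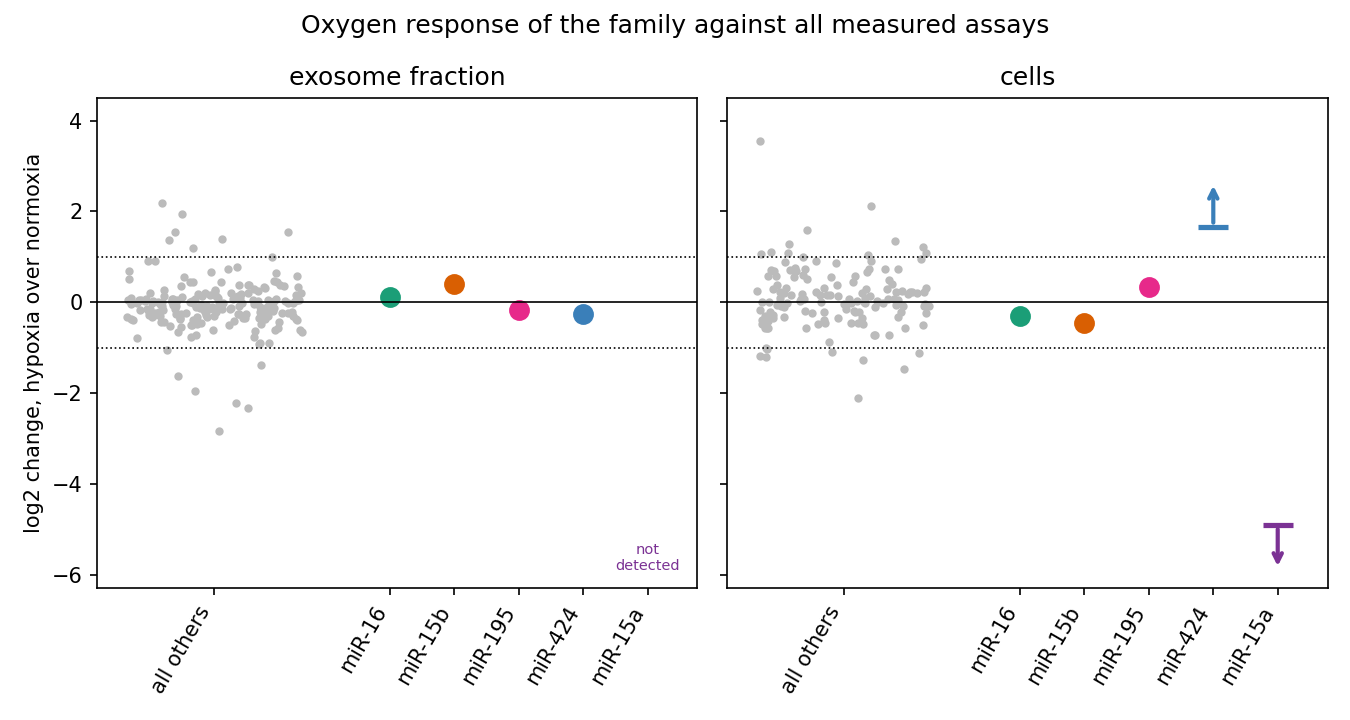
Log2 change of hypoxia over normoxia in the exosome fraction and in cells for the family (coloured points) and for all other assays under Ct 35 in both samples of that compartment (grey, spread sideways for visibility), with dotted lines at 2-fold. Bars with arrows are bounds for miR-424 (at least 3.16-fold higher) and miR-15a (at least 30.0-fold lower) in hypoxic cells. The measured members lie within 2-fold in both panels.

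Set side by side, the 3 members detected in all 4 samples had the opposite sign in the exosome fraction and in cells. The log2 change of miR-15b was 0.41 in the exosome fraction and -0.47 in cells, a difference of 0.88, which 12 of the 138 assays detected in all samples exceeded. That of miR-16 was 0.11 in the exosome fraction and -0.31 in cells, a difference of 0.41. That of miR-195 was -0.18 in the exosome fraction and 0.33 in cells, a difference of -0.51. No member's responses were 2-fold apart, where 15.9% of the 138 assays were. Opposite signs were found for 72 of the 138 assays (52.2%). The sign of miR-195 in the exosome fraction turned with each sample's median Ct in place of the spike-in as normalizer (0.02).

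The gap in Ct between 2 members of the same sample needs no normalizer, and it was used to follow the pairs that share a transcript. Only the exosome products were pre-amplified. A gap set between the exosome fraction and cells therefore also holds any difference between the assays in pre-amplification, which was not measured. For the chromosome 3 pair, miR-15b came 4.71 cycles after miR-16 in the hypoxic and 5.01 in the normoxic exosome fraction, against 4.03 in hypoxic and 3.87 in normoxic cells. The gap was thus wider in the exosome fraction than in cells, by 0.68 cycles in hypoxia and 1.14 in normoxia. Of the 138 assays detected in all 4 samples, 108 had a wider gap to miR-16 in the exosome fraction in hypoxia, and 77 in normoxia. Between the oxygen conditions the gap of miR-15b changed by -0.30 cycles in the exosome fraction and 0.16 in cells, hypoxia minus normoxia. The median change in the gap to miR-16 was 0.18 cycles over 202 assays in the exosome fraction and -0.35 over 146 in cells.

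For the chromosome 13 pair, the gap between miR-15a and miR-16 was at least 11.04 cycles in hypoxic cells, against 6.43 in normoxic cells. The difference was at least 4.60 cycles, or at least 24.3-fold, while miR-16 itself differed by 0.30 cycles. This bound depends on the ceiling: it was 3.60 cycles with the ceiling at Ct 34 and 2.60 at Ct 33. In the exosome fraction miR-15a came at least 18.1 cycles after miR-16 in hypoxia and at least 18.0 in normoxia. In normoxia this gap was at least 11.6 cycles wider in the exosome fraction than in cells, although miR-16 was the 6th strongest signal there. As miR-16 is made from both loci, these gaps do not measure the output of the chromosome 13 transcript alone.

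Few miRNAs with a cellular Ct as low as that of miR-15a were missing from the exosome fraction. Of the 162 assays detected in normoxic cells, 13 were at the ceiling in both exosome samples (8.02%). Of the 62 assays at or under the Ct of miR-15a there, 3 were (4.84%): miR-15a, miR-493 and miR-103. miR-103 had a Ct of 28.99 in hypoxic and 29.06 in normoxic cells. miR-107, which has the same seed as miR-103, was also at the ceiling in both exosome samples and in cells it appeared under hypoxia alone, at Ct 33.10. Whether these assays failed on the exosome cards was not tested.

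miR-195 and miR-424 were followed in the same way. The gap of miR-195 to miR-16 was 6.06 and 5.77 cycles in the hypoxic and normoxic exosome fraction, against 5.68 and 6.32 in hypoxic and normoxic cells, so the compartments overlapped. The gap of miR-424 was 13.1 and 12.7 cycles in the hypoxic and normoxic exosome fraction, against 9.37 in hypoxic cells and at least 11.3 in normoxic cells. It was 3.69 cycles wider in the exosome fraction than in cells in hypoxia, and at most 1.35 cycles wider in normoxia.

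**Figure D3:**
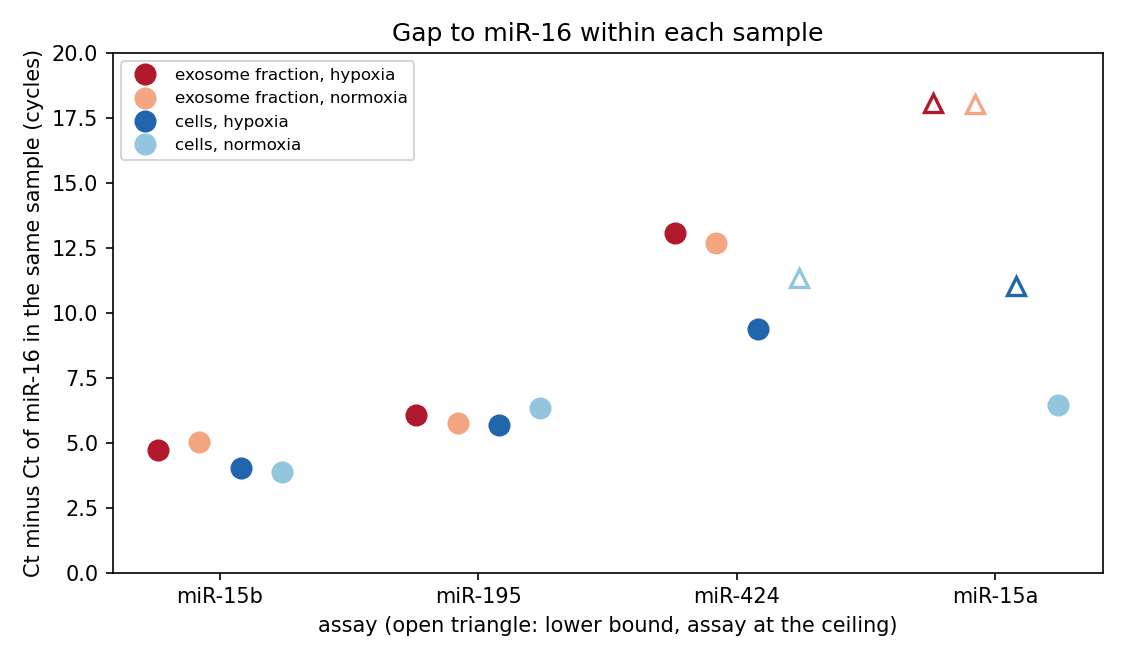
Ct of 4 family members minus the Ct of miR-16 in the same sample (cycles, 1 point per sample), with open triangles for lower bounds where the assay stood at the ceiling. miR-15b lies further from miR-16 in both exosome samples than in both cell samples, and miR-195 overlaps between them. Of the 138 assays detected in all 4 samples, 108 had a wider gap to miR-16 in the exosome fraction in hypoxia, and 77 in normoxia. miR-15a is at least 11.04 cycles from miR-16 in both exosome samples and hypoxic cells, against 6.43 in normoxic cells.

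To set levels in the exosome fraction against levels in cells, every Ct was first reduced by the median of its sample over the 138 assays detected in all 4 samples. None of the 3 members was 4-fold apart in the same direction at both oxygen levels, where 19.6% of the 138 assays were. On this log2 scale miR-16 was 0.07 in hypoxia and -0.25 in normoxia (exosome fraction minus cells), miR-15b was -0.61 and -1.39, and miR-195 was -0.31 and 0.29. The sign depends on the centring: with the mean in place of the median all of these shifted by 0.93 in hypoxia and 0.66 in normoxia, and miR-15b in hypoxia became 0.32. The order of the assays does not depend on it. In hypoxia 108 of the 138 assays had a lower exosome value than miR-16, 83 a lower one than miR-195 and 76 a lower one than miR-15b. In normoxia the numbers were 77, 101 and 39. miR-16 and miR-195 were therefore above the median of these assays at both oxygen levels, and miR-15b was above it in hypoxia and below it in normoxia.

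**Figure D4:**
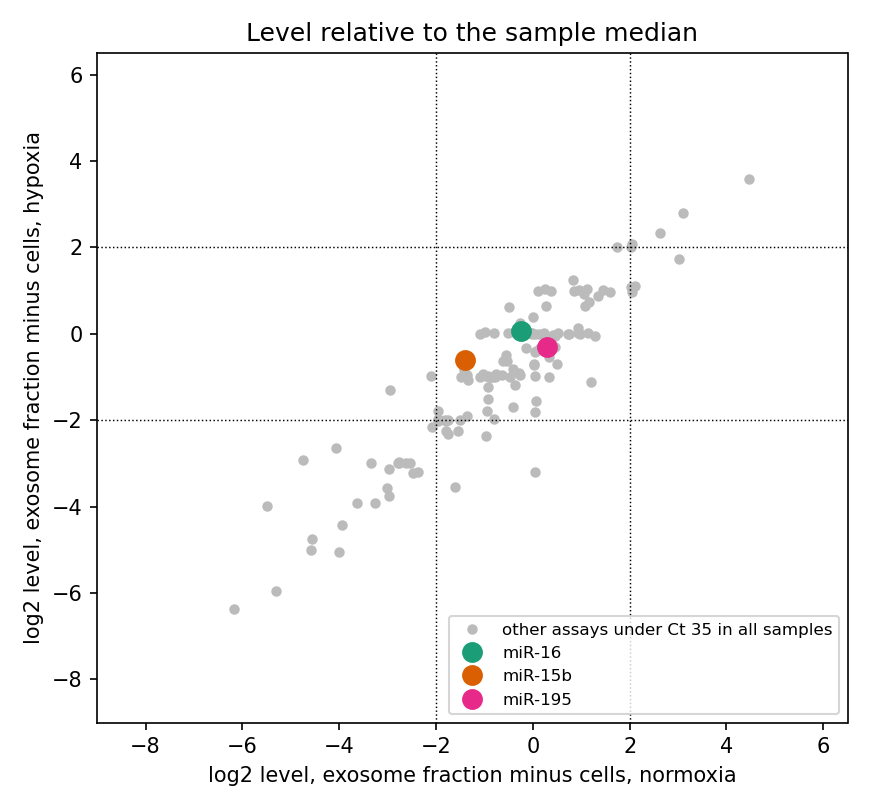
Log2 level in the exosome fraction minus that in cells, relative to each sample's median, in hypoxia (vertical) and normoxia (horizontal) for the 138 assays detected in all 4 samples, with dotted lines at 4-fold. miR-16 and miR-195 lie close to 0 on both axes, and miR-15b at -0.61 in hypoxia and -1.39 in normoxia.

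The miRNAs with the most similar profile were found from the 4 median-centred Ct values of each assay, reduced by their own mean, as the Euclidean distance in cycles to each member over the 138 assays. For miR-16 the nearest were miR-146b-5p (distance 0.04), miR-142-5p (0.10), miR-199a-3p (0.15), miR-139-5p (0.16) and miR-132 (0.18), against a median distance of 1.06. For miR-15b they were miR-10a (0.04), miR-339-5p (0.20), miR-671-3p (0.31), miR-551b (0.35) and miR-301a (0.36). For miR-195 they were miR-146a (0.07), miR-99b (0.14), miR-222 (0.16), miR-455-5p (0.20) and miR-660 (0.21). No family member was among the 5 nearest of another: miR-195 was 19th of 137 for miR-16, and miR-15b was 59th. With only assays under Ct 32 in all samples, 4 of the 5 names remained for miR-16, 3 for miR-195 and 2 for miR-15b. miR-10a, the nearest to miR-15b, stood at Ct 34.99 in hypoxic cells, next to the ceiling. Between 53.7% and 71.6% of the detected Ct values of a sample lay within 0.1 of a whole cycle. The part of this in the short distances was not tested.

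The neighbours of miR-424 on the X chromosome were seen in part and in the exosome fraction only. All 6 assays (miR-503, miR-542-3p, miR-542-5p, miR-450a, miR-450b-5p and miR-450b-3p) were at the ceiling in both cell samples. Of all 377 assays, only 170 were seen in either cell sample, while 203 were detected in both exosome samples, whose products alone were pre-amplified. miR-503, known with miR-424 from monocyte and muscle differentiation, was also at the ceiling in both exosome samples, as were both miR-450b assays. miR-450a stood at Ct 30.44 in the hypoxic and 30.97 in the normoxic exosome fraction (log2 change 0.58), and miR-542-3p at 31.95 and 31.97 (0.07). miR-542-5p stood at 33.97 in hypoxia and 32.87 in normoxia and was 1 of the 7 assays at least 2-fold lower there (3.45% of 203), with a log2 change of -1.04. miR-424 itself changed by -0.27, so the 4 detected assays of this locus did not share a direction. With the sample medians as normalizer in place of the spike-in, the values were 0.78 for miR-450a, 0.27 for miR-542-3p, -0.84 for miR-542-5p and -0.07 for miR-424. Each rests on 1 well per sample, and no spread between wells is known for the exosome fraction.

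miR-16 is abundant in red cells and platelets, so their markers are given beside it. Of 4 marker assays, miR-126 alone was detected in the hypoxic exosome fraction and in both cell samples, and miR-126 and miR-451 in the normoxic exosome fraction. Over all 377 assays, 58.1% and 58.6% were detected in the hypoxic and normoxic exosome fraction, against 41.1% and 43.0% in hypoxic and normoxic cells. The red cell miRNA miR-451 stood at the ceiling in the hypoxic exosome fraction, against Ct 33.19 in the normoxic one, and at the ceiling in both cell samples, and both miR-486 assays were at the ceiling in all 4. miR-126, also typical of endothelium, had a Ct of 21.97 in the hypoxic and 21.65 in the normoxic exosome fraction, against 25.97 in hypoxic and 25.98 in normoxic cells.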

How the data were processed

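The series holds 4 samples of RPMI8226, 1 per group. Per the series' design text and the labels' protocols, RNA was reverse transcribed with a multiplex primer pool, exosome products were pre-amplified, and TaqMan card data were run on DataAssist 3.1; the setting of the threshold and of the ceiling of 35 was not given in the sources used here. Of the deposited tables, the first holds Ct values, not normalized. The second holds the authors' ratio (fold of hypoxia over normoxia), normalized to U6 in cells and to the spike-in in the exosome fraction; ratios recomputed from Ct lay within 0.000356 log2 units of it for assays detected in both samples.

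Log2 changes are minus the difference in normalized Ct (hypoxia minus normoxia), computed with Python 3.11.15, numpy 2.4.6 and pandas 2.3.3. An assay counts as measured under Ct 35 in both samples, and 2-fold (levels across compartments, 4-fold) was the threshold. Wells at the ceiling give bounds against Ct 35. Ct values have no read depth, so counting intervals were not computed. The calculation was tested on simulated data. Alternatives were other normalizers, Ct limits, fold thresholds, centrings and ceilings; those at Ct 34 were added after seeing the data.

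The members and lists were chosen with earlier results of these data known. Named miRNAs are the members, other assays sharing bases 2 to 7, neighbours in the same transcripts, miR-103 and miR-107, normalizers, marker lists and the 5 assays nearest in profile to each member detected in all 4 samples; miR-493 was named after its values were seen. miR-497, a neighbour of miR-195 with the same bases 2 to 8, was not among the 377 human miRNA assays and could not be analysed. Of 6 epithelial assays 5 were detected in each sample, and of 4 fibroblast assays 2 in the hypoxic exosome fraction and 1 in each of the others. Sequences and coordinates come from RefSeq tables for GRCh38.p14.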

Additional observations from a re-analysis of the deposited data

Results flagged for a closer look

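Each value below was picked out because its sign in the exosome fraction was opposite to that in cells, with 1 sample on each side, and the difference was not tested. The log2 change of hypoxia over normoxia in the exosome fraction was 0.41 for miR-15b (-0.47 in cells), 0.11 for miR-16 (-0.31 in cells) and -0.18 for miR-195 (0.33 in cells). For miR-424 it was -0.27, where cells gave a bound above 0 (at least 1.66). Opposite signs were found for 52.2% of the 138 assays detected in all 4 samples.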

How the results depend on the processing

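No paired analysis was possible because each group is 1 sample, and for the same reason no replicate could be left out. The count of members past 2-fold stayed 0 in both compartments under the other normalizers, a 1.5-fold threshold and Ct limits of 32, 33 and 34. It became 2 in cells once miR-15a and miR-424 were counted at their bounds. The counts of members 2-fold apart in response and 4-fold apart in level also stayed 0 under each alternative run. RNU44 and RNU48 as normalizers moved every cellular log2 change by -0.15, and each sample's median Ct moved every exosome change by 0.20. The median as normalizer put the exosome median of the family at 0.16 in place of -0.04. All 21 recomputed cellular values of single members kept their direction, as did 7 of 8 in the exosome fraction; the exception was miR-195. The bound on the widening of the miR-15a gap in cells was 2.60 cycles with the ceiling at Ct 33 and 3.60 with it at 34. The bound for miR-424 in cells was 0.66 on the log2 scale with the ceiling at 34, below 2-fold, and with the ceiling at 33 miR-424 was not detected in either cell sample. Assays under Ct 32 as the basis of centring raised exosome levels relative to cells by 0.99 in hypoxia and 0.74 in normoxia. The number of samples, 1 per group, limits the precision of every value.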

Other observations

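Detected Ct values gathered close to whole cycles. Within 0.1 of a whole cycle, a window that covers 20% of the scale, lay 67.1% of detected assays in the hypoxic and 61.1% in the normoxic exosome fraction, against 71.6% in hypoxic and 53.7% in normoxic cells. Of the 16 detected wells of the family, 9 did so, among them miR-16 in both exosome samples and in hypoxic cells. Its part in the values above was not tested.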
